A study of Homo sapiens with 24 samples.

Results

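Keratins are the intermediate filament proteins of epithelial cells. An acidic type I keratin pairs with a basic type II keratin, and the pairs assemble into filaments that desmosomes and hemidesmosomes anchor. The pair in use marks the kind of epithelium: KRT5 with KRT14 in the basal layer of stratified epithelium, KRT8 with KRT18 in simple epithelium such as prostate luminal and renal tubule cells, KRT4 with KRT13 in mucosa, KRT1 with KRT10 in the upper epidermis, KRT6 with KRT16 and KRT17 in activated or wounded epithelium, and a separate set in hair and nail. The keratin genes were taken as every probe whose gene name is KRT followed by a number and, at most, one letter A to C, which leaves out keratin-associated proteins and pseudogenes. The rule found 55 genes on each of the array designs used, of 20507 genes with a current RefSeq name on the first design and 21363 on the second. Of them 29 are type I and 26 are type II, and they lie in the keratin clusters of chromosome 17 (28 genes) and chromosome 12 (27 genes). Their levels in control cultures of 7 cancer cell lines and their changes under every treatment are described.

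The data were 24 two-colour arrays, each with the RNA of a control culture in Cy3 and of a treated culture of the same line in Cy5, with no dye swap. The lines were FaDu and SAS (head and neck squamous cell carcinoma), PC3, DU145 and LNCap (PCa), and A498 and 786O (renal cell carcinoma). On the first design, 16 arrays on slides 1 and 2, PC3 and DU145 received genistein, a soy isoflavone; A498 and 786O received si-CAV2, a small interfering RNA named for caveolin 2; PC3, DU145 and LNCap received miR-145; FaDu received miR-375; FaDu and SAS received si-LAMB3, named for a chain of the laminin of basement membranes, and wogonin, a plant flavone; PC3 received miR-23b, miR-24 or miR-27b; and SAS received miR-29a. On the second design, 8 arrays on slide 3, DU145 and PC3 received miR-143 or si-GOLM1, named for a Golgi membrane protein, 786O and A498 received miR-27b, and 786O received the chemokine CXCL10 for 12 h or 24 h. Controls were labelled DMSO for wogonin, no treatment for genistein and CXCL10, and control for the transfections, while the study's methods give a vehicle control for genistein. No other dose or time was taken, and nothing in the labels ties an array to a separate passage or clone. Each line and agent had 1 array, so a single array has no replicate.

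Markers of the tissues followed the line labels in part. Of 7 squamous markers, 7 were well above background in every FaDu control channel, 6 in every SAS control channel and 0 in the renal lines. LNCap had 3 of them and PC3 and DU145 had 2 each on the first design. The keratins KRT5 and KRT14 are on this list, so it is not independent of the keratin results. LNCap had 7 of 7 prostate luminal markers in its control channel, whereas DU145 had 4 and PC3 had 3 in all channels of the first design. The prostate list did not set DU145 and PC3 apart there, since 786O had 4 and A498 and FaDu had 3 each. A498 had 6 and 786O had 5 of 7 renal markers, and the other lines of the first design 2 or 3. CAV2, LAMB3 and GOLM1 had log2 ratios from -4.15 to -0.89 on the arrays of the siRNA named for each, with the least change for LAMB3 in SAS.

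The promoters of 4 keratins that differ in where they were read are shown: KRT5, above background in the squamous lines only, KRT8, above background in every line, and KRT34 and KRT75, whose levels varied among PC3 cultures. Each sequence runs from 250 bases before to 50 bases after the gene start, 5′ to 3′ on the gene's strand, from RefSeq on GRCh38.p14, and capitals mark the letters of the motifs searched. KRT75 is at chr12:52434322-52434621, KRT5 at chr12:52520345-52520644, KRT8 at chr12:52926420-52926719 and KRT34 at chr17:41382257-41382556, all on the minus strand.
KRT5: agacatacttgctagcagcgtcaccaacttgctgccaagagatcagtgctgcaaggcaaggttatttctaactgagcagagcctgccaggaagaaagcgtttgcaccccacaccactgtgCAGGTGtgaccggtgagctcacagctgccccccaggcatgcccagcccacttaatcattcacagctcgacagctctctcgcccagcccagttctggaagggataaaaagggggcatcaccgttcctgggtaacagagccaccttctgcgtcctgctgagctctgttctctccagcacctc
KRT8: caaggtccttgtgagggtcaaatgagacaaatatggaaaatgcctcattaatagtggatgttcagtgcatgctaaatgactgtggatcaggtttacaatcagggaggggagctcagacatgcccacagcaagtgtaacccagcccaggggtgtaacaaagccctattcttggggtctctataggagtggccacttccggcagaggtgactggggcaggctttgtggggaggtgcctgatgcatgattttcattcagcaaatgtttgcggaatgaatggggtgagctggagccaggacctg
KRT34: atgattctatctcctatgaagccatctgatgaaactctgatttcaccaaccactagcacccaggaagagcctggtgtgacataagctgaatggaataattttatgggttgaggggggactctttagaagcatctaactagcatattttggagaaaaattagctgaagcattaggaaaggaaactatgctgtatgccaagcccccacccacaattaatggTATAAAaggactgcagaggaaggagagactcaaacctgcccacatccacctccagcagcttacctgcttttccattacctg
KRT75: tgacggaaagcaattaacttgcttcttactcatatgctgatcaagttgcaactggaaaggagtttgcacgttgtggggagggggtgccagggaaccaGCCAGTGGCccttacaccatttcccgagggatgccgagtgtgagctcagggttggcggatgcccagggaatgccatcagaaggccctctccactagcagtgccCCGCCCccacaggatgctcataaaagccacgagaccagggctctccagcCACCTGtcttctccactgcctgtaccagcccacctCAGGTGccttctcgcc
Motifs were searched on both strands. The TATA box was searched as TATAAA. The site of grainyhead-like factors was searched as AACCGGTT. The AP-1 site was searched as TGANTCA. The AP-2 site was searched as GCCNNNGGC. The SP1 site was searched as GGGCGG. An E-box was searched as CAGGTG. None of the matches shown overlaps another. Counting from the gene start, the KRT5 window held an E-box beginning at -130 and the KRT34 window a TATA box beginning at -31. The KRT75 window held an AP-2 site at -153, an SP1 site at -50 and E-boxes at -1 and 35. The KRT8 window held none of the 6 motifs. Whether its start is that of the transcript read by the KRT8 probe was not checked. The RefSeq table held 38 promoters of 34 of the 55 keratin genes. The TATA box was in 21 of these 38, and in 11.5% of all 35116 promoters of the same length. The grainyhead-like, AP-1, AP-2, SP1 and E-box motifs were in 0, 0, 5, 6 and 8 of the 38, and in 0.134%, 7.71%, 23.2%, 45% and 20.6% of all promoters. A match is a run of letters and not a measured binding site.

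The mature sequences of the 3 microRNAs on which keratin results below turn are also given, as RNA, with the seed (bases 2 to 8) in capitals. The labels do not name the arm that was transfected, so both arms are shown.
hsa-miR-145-3p: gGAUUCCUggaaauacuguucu
hsa-miR-145-5p: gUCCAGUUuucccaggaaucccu
hsa-miR-27b-3p: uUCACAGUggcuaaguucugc
hsa-miR-27b-5p: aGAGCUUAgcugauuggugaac
hsa-miR-375-3p: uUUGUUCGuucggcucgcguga
hsa-miR-375-5p: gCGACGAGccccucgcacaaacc
The 6 mature sequences had 6 distinct seeds. miR-145 lies on chromosome 5, miR-27b on chromosome 9 and miR-375 on chromosome 2.

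About as many keratin genes were read in every control channel as in none. A probe counts as well above background where the scanner software sets that flag. On the first design 14 of 55 keratin genes were well above background in all 16 control channels and 12 in none. On the second design these were 17 and 15 of 55 in 8 control channels. In the first design FaDu had the most, with 29 genes above background in all of its control channels, and LNCap had 20 in its only one. The simple-epithelial KRT8 and KRT18, the ductal KRT7 and KRT19 and the suprabasal KRT10 were above background in every control channel of both designs.

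Basal and stress-related keratins had the largest differences between the squamous lines and the others. Levels are log2 of the control signal after normalization between the arrays of a design, and levels of different genes are not compared because they come from different probes. KRT5, the type II basal keratin, read 14.28, 14.83 and 15.15 in the 3 FaDu controls and 11.62, 13.19 and 14.03 in the 3 SAS controls. It was not well above background in any control of the other lines, where it lay between 1.69 and 3.62 over both designs, which were normalized separately. The squamous and the other lines did not overlap. KRT14, the type I partner of KRT5, read 15.60 ± 0.55 (SD, n = 3) in FaDu and 13.47 ± 1.82 (SD, n = 3) in SAS. It was dim but above background in DU145 at 3.51 ± 0.85 (SD, n = 2) and in LNCap at 4.92 (n = 1). KRT17, a type I keratin of activated and basal cells, read 15.32 ± 0.66 (SD, n = 3) in FaDu and 13.18 ± 1.78 (SD, n = 3) in SAS. In SAS the control of the miR-29a array was the lowest of 3 for all these genes, at 11.62 for KRT5, 11.45 for KRT14 and 11.21 for KRT17.

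**Figure D1:**
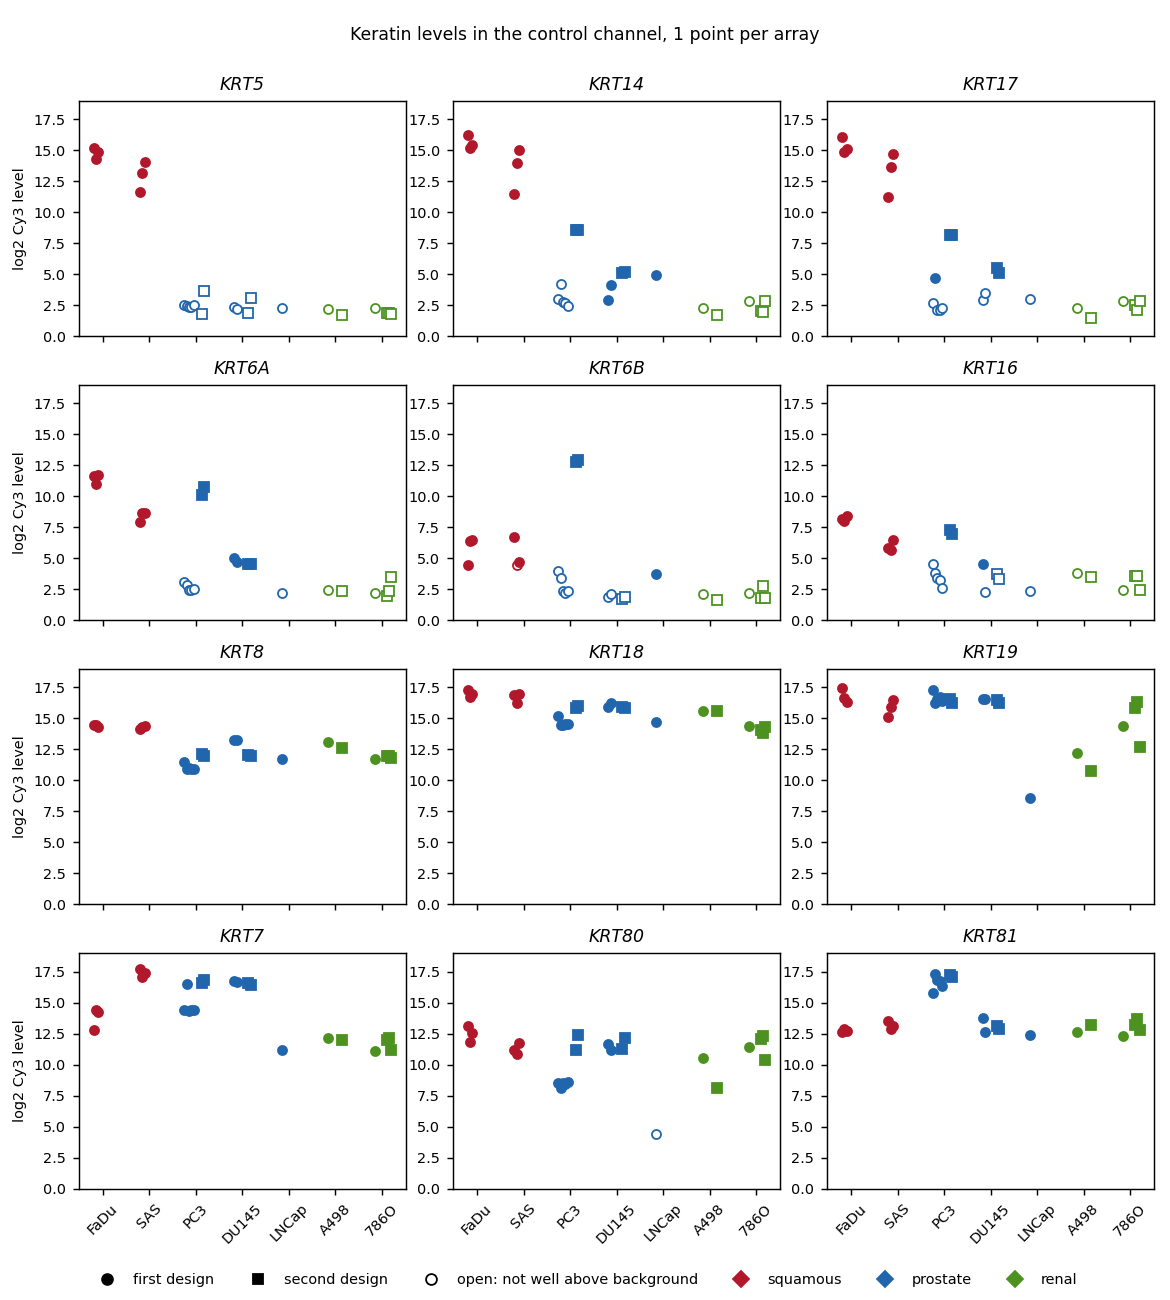
Log2 level in the control (Cy3) channel for 12 keratin genes, 1 point per array, by cell line on the x axis, with colours for the tissue, circles for the first design, squares for the second and open symbols for values not well above background. KRT5 lies between 11.62 and 15.15 in the squamous lines and is open in every other line, while PC3 has a separate pair of high KRT6B points at 12.75 and 12.94 on the second design.

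In the fit over all genes, keratins were higher in the squamous than in the PCa lines. With limma and Benjamini-Hochberg adjustment over the 17403 genes tested, 18 of the 43 keratins tested were higher and 1 was lower, while 17.7% of all genes were higher and 20.8% lower. The median keratin difference was 0.82 log2 and that of all genes -0.03. By type, 9 of 23 type I and 9 of 20 type II keratins were higher. The p-values rest on the spread between control cultures of a line and not on the spread between lines of a tissue, and the cultures are not stated to be separate passages. The groups did not overlap for 11 of the 19 genes called, a count that was not made over all genes. The 5 largest differences are printed with their errors. KRT5 was at least 1503-fold higher, since the PCa lines were not above background, and its fitted difference was 11.52 ± 0.38 (SE). KRT17 differed by 11.12 ± 0.65 and KRT14 by 10.64 ± 0.61. Of the PCa controls only that of PC3 miR-145 was above background for KRT17, and no PC3 control was for KRT14. The sizes of both differences thus rest in part on readings not above background. KRT6A, of the wound-activated set, differed by 6.63 ± 0.21. KRT23, a type I keratin of unsettled function, was at least 15.2-fold higher with a fitted 4.75 ± 0.41. The largest adjusted p of these 5 was that of KRT23, at 1.9e-05. Over the 18 settings that left out a line or a control, the difference of KRT5 ranged from 10.62 to 12.42, of KRT17 from 10.05 to 12.19, of KRT14 from 9.58 to 11.70 and of KRT6A from 5.12 to 8.14. With the slide as a block 15 of the 19 calls held, and those of KRT6B, KRT7, KRT81 and KRT86 did not. Within slide 1 11 of the 19 held and within slide 2 15 did, with KRT5 at 12.81 and 11.33. Slide 1 holds 1 squamous control, that of FaDu miR-375, and the only PCa control on slide 2 is the shared PC3 control of miR-23b, miR-24 and miR-27b, counted as 1 sample. Each of these within-slide fits thus has an arm of 1 sample, which is assumed to vary like the cultures of the other lines on the slide.

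The other members of the stress-related and mucosal sets were also higher in the squamous lines. KRT6C was at least 13.0-fold higher, KRT16 higher by 3.89 and KRT6B by 2.55 log2. KRT6A, KRT6B and KRT6C are nearly identical genes, as are KRT14, KRT16 and KRT17 over long stretches, so their probes may share signal and the single members are uncertain. The mucosal keratins KRT13 and KRT4 were higher by 3.33 and 2.87, and both rested on FaDu. KRT13 read 8.91 ± 0.81 in FaDu and 6.12 ± 2.04 in SAS (SD, n = 3 each), and without FaDu its adjusted p was 0.18. KRT4 read 9.49, 10.19 and 14.57 in FaDu and 4.73, 4.75 and 5.10 in SAS, and without FaDu its difference was -0.41. Leaving out PC3, the control of DU145 miR-145 or the control of SAS wogonin also ended the KRT4 call. KRT15, a basal type I keratin, was higher by 3.94 and KRT80, a type II keratin of broad epithelial expression, by 3.80, which was 1.95 without LNCap. KRT9, known from palm and sole epidermis, was higher by 1.68.

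Simple-epithelial keratins were read in every line and differed less. KRT8 read from 14.12 to 14.48 in the 6 squamous controls, with a median of 14.36, against 10.91 to 13.30 in the 8 PCa control channels. Its difference of 2.31 ± 0.15 (SE) had an adjusted p of 3.6e-06, and the groups did not overlap with this probe. A dimmer KRT8 probe read 9.25 to 9.83 in the squamous and 5.08 to 8.29 in the PCa controls. Another KRT8 probe read 10.18 to 10.62 against 8.69 to 10.94, so with it the groups overlapped. KRT18, the partner of KRT8, was higher by 1.66 ± 0.21, without overlap. KRT19, the smallest keratin and a common ductal marker, was called at 2.37, but this rested on LNCap. It read 8.59 in LNCap against 16.57 ± 0.01 in DU145 (SD, n = 2) and 16.72 ± 0.56 in PC3 (SD, n = 3), and without LNCap the difference was -0.32. Within slide 2, which holds no LNCap array, it was -0.44. KRT7, a ductal type II keratin, read 17.39 ± 0.31 in SAS and 13.80 ± 0.86 in FaDu (SD, n = 3 each), and its difference of 1.26, which was -1.64 within slide 1, lost the call in 10 of 18 settings that left out a line or a control, among them without SAS or LNCap. KRT86, a hair keratin, was 2.82-fold higher and lost the call in 8 of those 18 settings, among them without FaDu, PC3 or LNCap. KRT10 was read in every control channel, and its difference was -0.16 with an adjusted p of 0.57.

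KRT81 was the only keratin lower in the squamous lines. This type II hair keratin read 15.78 to 17.29 in the 5 PC3 control channels of the first design, against 12.36 to 13.72 in DU145 and LNCap and 12.63 to 13.54 in the squamous lines. PC3 thus stood alone, and the difference of -1.08 was 0.19 without PC3. It also lost the call without FaDu.

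Against the renal lines the basal and stress-related keratins also had the largest differences. Of 43 keratins tested, 16 were higher in the squamous lines and 1 was lower, while 13.9% of all genes were higher and 15.4% lower. The groups did not overlap for 16 of the 17 called, again a count not made over all genes. The renal group held 1 control of each line. KRT14 was at least 2507-fold, KRT17 at least 2062-fold, KRT5 at least 1559-fold and KRT6A at least 102-fold higher than in A498 and 786O, where none of them was well above background. KRT7 was higher by 3.95 ± 0.58 (SE), with A498 at 12.16 and 786O at 11.13, and lost the call without SAS. KRT83 and KRT86, type II hair keratins, were higher by 3.24 and 3.02, and KRT19 by 3.05. KRT8 and KRT18 were higher by 1.92 and 1.85. The KRT8 probe whose groups overlapped above read 10.26 in A498 and 8.94 in 786O, against 10.18 to 10.62 in the squamous controls. KRT23, KRT6C, KRT16 and KRT6B were at least 15.8-fold, 13.6-fold, 11.7-fold and 4.85-fold higher, KRT4 and KRT9 were higher by 3.53 and 2.02, and KRT4 lost its call in 6 of 10 settings that left out a line or control, among them without FaDu. KRT33A, a type I hair keratin, was at least 2.26-fold lower in the squamous lines, a call lost in 7 of those 10 settings. KRT81, KRT83 and KRT86 are close relatives, as are KRT33A and KRT33B, and may share signal too. The second, dimmer probe of KRT83 was also higher in the squamous lines, at 3.92 to 7.30 against 2.41 in A498 and 3.28 in 786O. Of these controls only that of SAS miR-29a was well above background. Its ratios were 2.48 with genistein in PC3 and 0.71 with miR-375 in FaDu, against 2.86 and -1.57 for the bright probe. With the slide as a block the calls of KRT33A, KRT6B and KRT86 were lost, and within slide 1, again with 1 squamous sample, 11 of the 17 calls held.

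**Figure D2:**
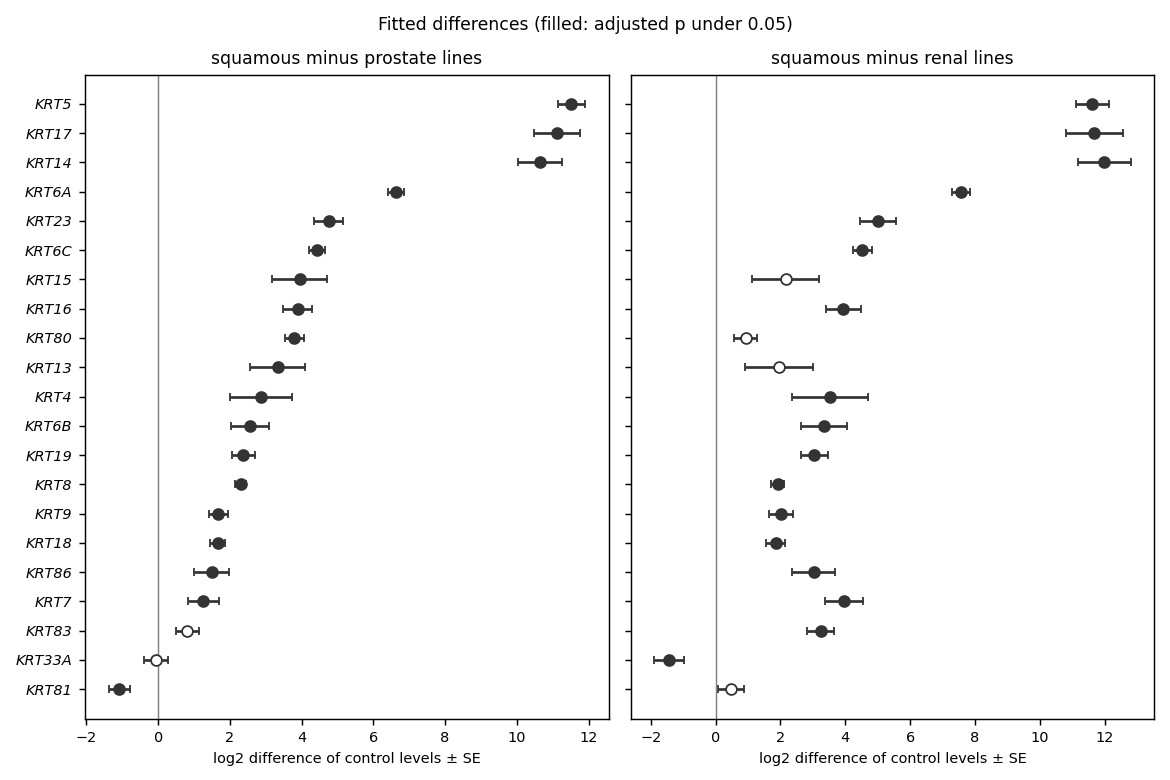
Fitted log2 difference of control levels (x axis, ± SE) for the 21 keratins called in either comparison (y axis), squamous minus PCa lines on the left and squamous minus renal lines on the right, filled where the adjusted p was under 0.05. KRT5, KRT14 and KRT17 lie above 10 in both panels, and KRT81 and KRT33A are the ones called below 0.

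Genes that work with keratins were counted from fixed lists. Of all genes tested, 17.7% were higher and 20.8% lower in the squamous than in the PCa lines. Against the renal lines these shares were 13.9% and 15.4%. Of 15 regulators of squamous or simple-epithelial genes, 12 were higher and 0 lower in the squamous than in the PCa lines, with a median of 2.55 log2. TP63, the master factor of stratified epithelium, was higher by 4.67, ZNF750 by 4.25, GRHL2 by 3.89 and ESRP1 by 3.79. Of 17 cornified envelope genes tested, 10 were higher and 2 lower, led by CSTA at 8.02. Of 11 linkers that tie keratins to junctions, 8 were higher and 0 lower, with PPL, which encodes periplakin, at 3.57. Among 13 other intermediate filament genes tested, 0 were higher and 4 lower, and VIM, the mesenchymal vimentin, was lower by 7.70. The summed signal of 6 mesenchymal markers, VIM among them, was 16.06 log2 in PC3 and 16.15 in DU145 but 9.45 in LNCap. In FaDu and SAS it was 10.55 and 10.69, so the size of the VIM difference rests largely on PC3 and DU145. Of these 6 markers 3 were higher and 2 lower in the squamous than in the PCa lines. Against the renal lines 13 of 15 regulators, 7 of 17 cornified genes and 8 of 11 linkers were higher, and 6 of 13 other filaments were lower.

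Renal and PCa lines differed in 7 keratins on the first design and in 19 on the second. On the first, 3 of 43 keratins were higher and 4 lower in the renal lines, with 12.2% of all genes higher and 13.5% lower. KRT7 was lower by 2.68, KRT83 by 2.42 and KRT81 by 1.57, KRT80 and KRT34 were higher by 2.87 and 2.83, and KRT222, a keratin-like gene, was at least 5.02-fold higher. KRT6A was at least 1.03-fold lower. Of these 7, only KRT83 kept the call in all 12 settings that left out a line or a control, and KRT80 lost it without LNCap, in which KRT80 was not well above background at 4.38. KRT222 lost it without 786O or PC3, KRT7 without 786O or DU145, KRT81 without A498, 786O or PC3, and KRT34 and KRT6A in 7 and 6 of the 12. With the slide as a block the call of KRT34 was lost, and within slide 1 those of KRT80 and KRT222 held. On the second design, without LNCap, 2 of 40 keratins were higher and 17 lower, with 15.7% of all genes higher and 15.8% lower. The keratin median was -0.64 log2 and that of all genes -0.004.

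Many second-design differences rested on PC3. KRT6B was at least 13.5-fold, KRT14 at least 9.68-fold and KRT17 at least 9.03-fold lower in the renal lines. KRT6A was at least 14.97-fold lower, and KRT7 lower by 4.72 ± 0.27 (SE). KRT83 was lower by 4.32 and KRT86 by 2.93. KRT14, KRT17, KRT7, KRT83 and KRT86 kept the call in all 11 settings that left out a line or a control. KRT6A, KRT6B, KRT6C, KRT16, KRT75, KRT37, KRT4 and KRT81 lost it without PC3, where the difference of KRT6B became 0.09, of KRT75 0.12 and of KRT81 0.24. KRT32 lost it without 786O or PC3 and KRT18 without 786O. KRT19, KRT10, KRT222 and KRT34 lost it in 7, 8, 8 and 4 of the 11 settings, and KRT34, higher in the renal lines on the first design, was lower by 1.99 on the second and, in limma without PC3, higher by 2.35 with an adjusted p of 0.046. All 8 arrays of the second design lay on slide 3.

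PC3 controls differed between the designs in these genes. KRT6B read 2.20 to 3.94 in the 5 PC3 control channels of the first design, none well above background, and 12.75 and 12.94 in those of the second. KRT14 read 2.42 to 4.21, none above background, and then 8.52 and 8.56. KRT34, a hair keratin, read 5.17 to 9.05 and then 11.57 and 11.85, and KRT75, a hair follicle keratin, 2.43 to 7.58 and then 9.43 and 10.13. In each of the 4 genes the first and second design did not overlap in PC3. The designs were normalized separately, so their levels are set side by side without a test. Some markers of other states also differed between the designs, while others of the same lists did not or went the other way. With the same probes, VIM read 15.69 to 16.39 and then 10.80 and 11.41, and ZEB1, a mesenchymal factor, 9.79 to 10.55 and then 4.72 and 5.74. OVOL1, an epithelial factor, was not well above background on the first design and read 10.39 and 10.01 on the second. Of the mesenchymal list, FN1 read 5.62 to 6.67 and then 7.52 and 7.49, and CDH2 10.69 to 12.65 and then 11.69 and 11.44. Of the regulators, KLF5 read 10.11 to 10.93 and then 8.41 and 8.48. What these markers, the slide and the design contribute was not tested. The labels name PC3 on both designs, and whether these cultures are the same line was not tested, so the second-design calls lost without PC3 describe the PC3 cultures of that design. KRT19 and KRT81 lay close on both designs in PC3, at 16.72 ± 0.56 (SD, n = 3) and 16.40 ± 0.19 (SD, n = 2) for KRT19 and 16.57 ± 0.76 and 17.16 ± 0.10 for KRT81.

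Responses to treatment were read as the log2 ratio of the treated over the control channel. For agents given to more than 1 line, the lines served as replicates in limma. A gene was also called by size on a single array, where its log2 ratio passed 1 in either direction and either channel of its probe was well above background. Such calls have no test, and up or down refers to the size only. Of the 55 keratins 48 could be tested on at least 1 array and 42 were called by size on at least 1. In all there were 134 calls, of which 73 had both channels above background. These totals over the arrays were not made over all genes, of which single arrays called from 1.12% to 28.3%. The control cultures also varied: of 123 calls in lines with other controls of the same design, the treated value of 85 lay past every other control of its line. The same count was not made over all genes.

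KRT17, KRT14, KRT6B and KRT78, basal, stress-related or stratified keratins, were up-regulated by miR-145 in the PCa lines. In limma, 4 of 38 keratins tested were up-regulated and 0 down-regulated, against 5.16% of all genes called. KRT17 was up-regulated by 4.08 ± 0.46 log2 (SE), with an adjusted p of 0.0024 and n = 3 lines. Its level with miR-145 was 9.38 against 4.70 in the PC3 control, 6.55 against 3.46 in DU145 and 7.48 against 3.02 in LNCap, higher in each of the 3 lines. The DU145 and LNCap controls were not well above background, which makes the rise at least 8.51-fold and at least 17.3-fold there. KRT78, a type II keratin of stratified epithelium, was up-regulated by 2.25 ± 0.30 with an adjusted p of 0.0053. It read 9.01 against 6.23 in PC3, 7.70 against 6.48 in DU145 and 8.96 against 6.22 in LNCap, with every channel above background. In limma KRT14 was up-regulated by 3.64 ± 0.60 with an adjusted p of 0.016. Its control and treated levels were 4.21 and 9.68 in PC3, where the control was not above background, 4.11 and 6.54 in DU145 and 4.92 and 7.95 in LNCap. KRT6B was up-regulated by 4.29 ± 0.93 in limma, with an adjusted p of 0.041. It read 8.46 against 3.41 in PC3 and 9.86 against 3.70 in LNCap, and the fit includes DU145, where neither channel was above background.

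KRT17 and KRT78 kept their calls in all 16 settings that left out an array. KRT14 lost its call without the PC3 array (adjusted p = 0.066), and KRT6B lost it in 8 of the 16, among them without the PC3, LNCap, si-LAMB3, wogonin or si-CAV2 arrays. After subtracting the mean of the other agents of the design the KRT6B call was lost (adjusted p = 0.065), and after subtracting those on the same slide the KRT14 and KRT6B calls were lost (adjusted p = 0.061 and 0.078). With the spread taken from the miR-145 arrays alone no keratin was called, and the adjusted p of KRT17 was then 0.11. KRT16 had a ratio of 2.86 with an adjusted p of 0.053, and KRT75 one of 2.16 with 0.096.

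By size, miR-145 gave 10 calls up and 0 down of 33 keratins in PC3 (14.2% of all genes called in either direction), 9 up and 0 down of 30 in LNCap (9.07%), and 4 up and 1 down of 28 in DU145 (4.94%). LNCap had the widest set: KRT16 at least 17.6-fold, KRT6C at least 12.7-fold, KRT2 at least 5.4-fold, KRT75 at least 4.94-fold and KRT6A at least 3.54-fold up, all from controls not above background. In PC3, KRT16 was at least 7.34-fold and KRT6C at least 2.19-fold up, and KRT75, KRT34, KRT9 and KRT80 were up by 2.80, 2.99, 1.38 and 1.11 log2. In DU145, KRT74 was at least 2.05-fold up, and KRT27 at least 20.2-fold down from a control of 7.78, whereas the other DU145 control read 1.96. The simple-epithelial keratins did not pass 1 in any of the 3 lines. KRT8 had ratios of 0.48, 0.043 and 0.13, and KRT18 of -0.54, -0.02 and -0.06 in PC3, DU145 and LNCap. Of the regulators 12 were tested, 1 of which was up-regulated, KLF4, a factor of differentiating epithelium, by 3.06 (adjusted p = 0.017). GRHL2 was down-regulated by 0.92. Among the linkers DSP, the desmoplakin gene, was up-regulated by 0.91, and among other filaments LMNB2 was down-regulated by 0.69.

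**Figure D3:**
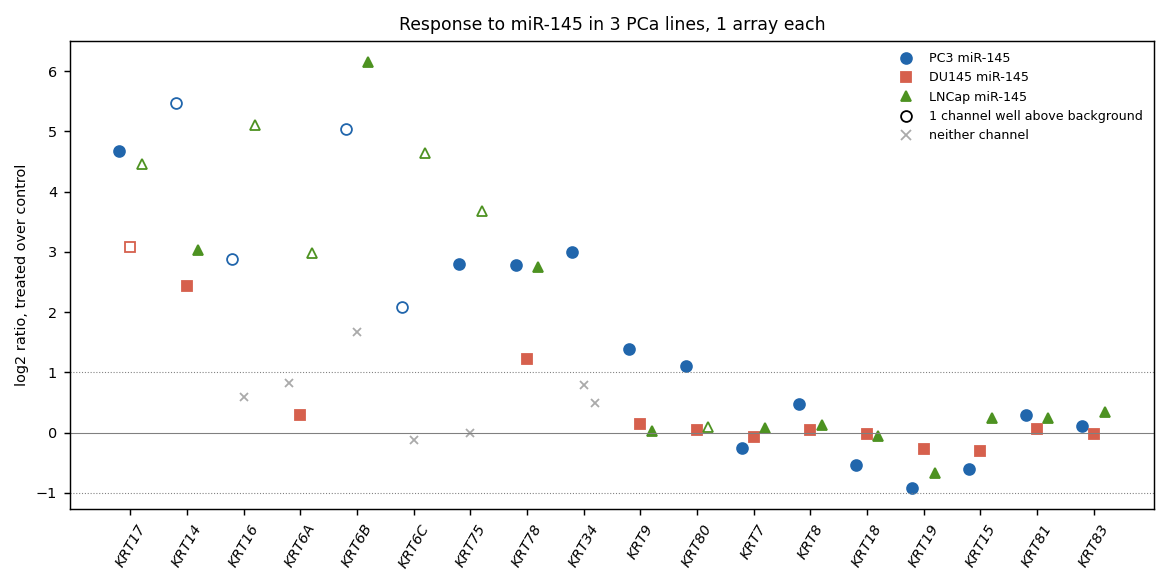
Log2 ratio of treated over control (y axis) for 18 keratins (x axis) on the 3 miR-145 arrays, with filled symbols where both channels were well above background, open symbols where 1 was and crosses where neither was, and dotted lines at 1 and -1. KRT17 lies at 4.68, 3.09 and 4.46 in PC3, DU145 and LNCap, while KRT8 and KRT18 stay between the dotted lines.

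Basal, stress-related, simple-epithelial and mucosal keratins were all lower with miR-375 in FaDu. On this single array 20 of 36 keratins were down and 0 up past 1, whereas 23.9% of all genes were called, 1566 up and 1982 down. The keratin median was -1.32 log2 and that of all genes 0.02. Among the basal keratins the treated and control levels were 13.83 and 15.15 for KRT5, 13.86 and 16.21 for KRT14, and 12.20 and 14.64 for KRT15. Among the stress-related keratins they were 13.88 and 16.07 for KRT17, 8.26 and 11.62 for KRT6A, and 6.88 and 8.20 for KRT16. The simple-epithelial KRT8 and KRT18 and the ductal KRT19 had log2 ratios of -1.36, -1.33 and -1.68. Among the mucosal keratins KRT13 had a ratio of -3.02, and KRT4 had the most negative of the 20, with 9.88 against 14.57.

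The treated value lay below both other FaDu controls for 18 of the 20, a count not made over all genes. KRT4 was an exception: the other FaDu controls read 9.49 and 10.19, so that the treated value lay between them and the control of this array stood apart. KRT27 was the other exception, at 3.86 treated against 2.65 and 3.78. KRT222 was at least 9.37-fold, KRT23 at least 5.35-fold, KRT1 at least 3.51-fold, KRT75 at least 3.03-fold, KRT27 at least 2.98-fold and KRT6B at least 2.05-fold down, since their treated channels were not above background. KRT6C, KRT9 and KRT83 had ratios of -2.60, -2.05 and -1.57. For KRT222 the control of this array, at 6.20, also stood above the other FaDu controls at 2.29 and 2.36. The same held for the rest of the 20 except KRT6A, KRT6B, KRT6C, KRT16, KRT23 and KRT75. KRT15 read 14.64 in this control against 12.60 and 13.50 in the others, and 12.20 with miR-375. KRT19 read 17.49 against 16.31 and 16.62, and 15.81 with miR-375. Set against the other controls, the drop of such genes was smaller or absent. KRT7, at 0.66, was not called. Of 15 regulators 1 was up and 4 were down past 1, namely ESRP1 at -2.23, SOX2 at -2.09, KLF5 at -2.05 and ELF3 at -1.83. Of 12 cornified genes tested 2 were up and 5 down, with TGM1, a crosslinking transglutaminase, at -5.00. Of 11 linkers 1 was up and 2 were down.

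**Figure D4:**
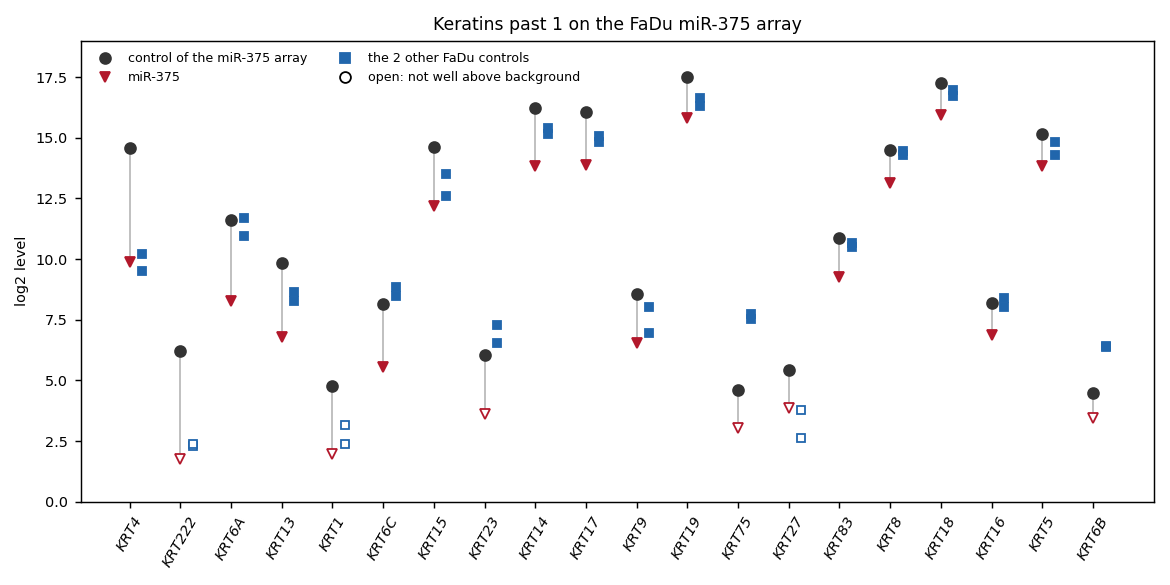
Log2 level (y axis) of the 20 keratins called by size on the FaDu miR-375 array (x axis): its control (black circles), its treated channel (red triangles) and the other FaDu controls (blue squares), with open symbols not well above background. Every triangle lies below its circle, and for KRT4 the triangle at 9.88 lies between the squares at 9.49 and 10.19.

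Keratins moved past 1 in both directions with genistein in PC3. By size 9 of 29 keratins were up and 6 down in PC3 (16.4% of all genes called), and 3 up and 2 down of 29 in DU145 (11.5%). In PC3, KRT14 was at least 5.75-fold, KRT17 at least 5.23-fold and KRT16 at least 3.16-fold up. KRT81 read 18.15 against 15.78 in its control and KRT83 15.82 against 12.96, each past the 4 other PC3 control channels. KRT7 read 16.64 against 14.38. KRT34 read 8.81 against 5.17, which lay within the other PC3 controls at 5.68 to 9.05. KRT80 and KRT74 were up by 1.06 and 1.49. Among those down, KRT37, a hair keratin, was at least 55-fold down, but its control read 9.33 and the other PC3 controls 3.91 to 4.81. KRT20, a keratin of intestine and urothelium, was at least 17.2-fold down from 6.98, with the other controls at 2.78 to 4.35. KRT32, KRT15, KRT13 and KRT19 had ratios of -3.55, -2.96, -1.81 and -1.32. KRT15 read 9.36 against 12.32, and the other PC3 controls 8.81 to 10.69. KRT13 read 4.35 against 6.16, and the other PC3 controls 2.78 to 4.84. The treated values of KRT15 and KRT13 thus lay within the other PC3 controls.

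In DU145 KRT6A read 7.74 with genistein against 5.01, KRT6C was at least 5.88-fold and KRT17 at least 2.14-fold up. KRT4 read 6.20 against 8.61, and the other DU145 control read 5.60. KRT36 was at least 2.53-fold down. KRT17 was the member called up in both lines, and over them its ratio of 2.31 had an adjusted p of 0.051 in limma. The only limma call of 34 keratins was KRT36, at -1.08 (adjusted p = 0.046, against 6.05% of all genes called), for which neither PC3 channel was above background. That call was lost in 8 of 15 settings that left out an array, with only the genistein arrays (adjusted p = 0.45) and after subtracting the other agents of the design, where KRT36 was at -0.24 (adjusted p = 0.63). Of the regulators TFAP2C was down-regulated by 1.10.

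With miR-27b KRT80 was up by size in each of 3 lines over both designs, at 11.36 against 8.56 in PC3, 9.25 against 8.11 in A498 and 11.47 against 10.39 in 786O. In 786O the other controls read 12.08 and 12.30, above the treated value. In limma on the second design, over A498 and 786O, its ratio was 1.11 ± 0.07 (SE) with an adjusted p of 0.057, and 0 of 31 keratins were called. With limma 4 keratins had an unadjusted p under 0.05, and 0.0121% of all genes were called. By size miR-27b gave 8 calls up and 0 down of 24 keratins in PC3 (13.7% of all genes), 1 up and 1 down of 27 in A498 (2.58%) and 2 up and 0 down of 27 in 786O (2.78%). In PC3 the others were KRT37, at least 15.8-fold up, KRT75, at least 1.94-fold up, and KRT34, KRT32, KRT86, KRT81 and KRT83 at 2.83, 1.75, 1.48, 1.29 and 1.03. The keratin down in A498 was KRT28, at least 2.54-fold, and the second 786O call was KRT74 at 1.74, from a control not above background.

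miR-23b and miR-24 were hybridised against PC3 controls that carry the same control name as that of miR-27b. By size miR-23b gave 2 keratins up and 1 down of 27 (11.1% of all genes), and miR-24 gave 6 up and 1 down of 25 (28.3%). KRT75 was up on all 3 arrays, at least 5.11-fold with miR-23b, at least 3.12-fold with miR-24 and at least 1.94-fold with miR-27b. Their controls read 2.49, 2.43 and 2.61, while the genistein and miR-145 controls of PC3 read 7.58 and 5.38. With miR-23b KRT26 was at least 1.55-fold up and KRT1 at least 1.95-fold down. With miR-24 KRT34 was up by 2.01, KRT32 read 8.09 against 6.60, KRT74, KRT33A and KRT71 at least 2.67-fold, 1.85-fold and 1.34-fold, and KRT10 was down by 1.03.

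In the squamous lines 12 of 36 keratins were up and 2 down with si-LAMB3 in FaDu (9.53% of all genes called by size), and 7 of 34 were up and 2 down in SAS (14.5%). In limma 5 of 38 were up-regulated and 0 down-regulated, against 8.04% of all genes called. KRT80 read 13.42 against 11.82 in FaDu and 13.24 against 10.87 in SAS, past both other controls in each line. Its ratio was 1.99 ± 0.38 (SE) with an adjusted p of 0.022. KRT9 was up-regulated by 1.60, with ratios of 2.36 in FaDu and 0.83 in SAS and with an adjusted p of 0.049. The hair keratins KRT35, KRT33A and KRT85 were up-regulated by 1.89, 1.23 and 0.58 in limma, with adjusted p of 0.042, 0.041 and 0.046. The controls of KRT35 and KRT33A were not above background in either line. All 5 lost the call after subtracting the mean of the other agents of the design, after subtracting those on the slide and with only the si-LAMB3 arrays in the fit. After the first of these KRT80 was at 1.70 (adjusted p = 0.074) and KRT33A at 0.42 (adjusted p = 0.51). All 5 also lost it without either si-LAMB3 array, and KRT33A, KRT35 and KRT85 lost it with normexp background correction. KRT9, KRT33A, KRT35 and KRT85 also lost it without other arrays, in 10, 5, 9 and 7 of 16 settings in all. Of the regulators GRHL3 and ESRP1 were up-regulated by 2.34 and 1.32, and of the cornified genes SPRR3 by 1.17. DST, a hemidesmosomal linker gene, was down-regulated by 0.65 and LMNB2 was up-regulated by 0.93.

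Of the remaining si-LAMB3 calls some were made in SAS and others in FaDu. In SAS KRT86 read 9.71 against 7.01 and KRT18 17.69 against 16.26. KRT6B was at least 3.97-fold up and KRT32 at least 2.51-fold up there. In FaDu KRT4 read 11.21 against 9.49, KRT23 8.38 against 7.29 and KRT75 5.55 against 7.75. KRT39, KRT33B, KRT71 and KRT1 were at least 2.36-fold, 1.82-fold, 1.66-fold and 1.37-fold up. KRT34, KRT13 and KRT15 moved past 1 in opposite directions in the 2 lines. The treated values of KRT13 in both lines and of KRT15 in FaDu did not lie past both other controls of the line. KRT34 was at least 4.76-fold down in FaDu and at least 3.88-fold up in SAS.

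With wogonin 4 of 32 keratins were up and 5 down in FaDu (8.66% of all genes called by size), and 3 of 31 were up and 5 down in SAS (13.1%). In SAS KRT23 read 5.83 against 8.66, KRT15 12.11 against 14.04, KRT13 6.37 against 8.19, KRT19 15.22 against 16.52 and KRT80 10.45 against 11.75. For KRT15, KRT13 and KRT19 this treated value was not below the other SAS controls. In FaDu KRT15 read 14.80 against 13.50 and KRT19 17.37 against 16.31. Another FaDu control read 17.49 for KRT19. KRT34, KRT83, KRT18, KRT86 and KRT7 were down there at -1.36, -1.05, -1.04, -1.04 and -1.01. KRT74 was at least 2.31-fold up in FaDu, KRT32 at least 2.4-fold and KRT6B 1.33 log2 up in SAS. KRT33A was the only limma call of 33 keratins, at 1.72 (adjusted p = 0.034, against 1.95% of all genes called), with both controls not above background, and that call was lost without either wogonin array, without either si-CAV2 array or without the DU145 miR-145 array. It was also lost with only the wogonin arrays (adjusted p = 0.26) and after subtracting the other agents of the design, where KRT33A was at 0.98 (adjusted p = 0.14). KRT33A had a ratio above 0 on all 21 arrays on which it could be tested, with a lowest of 0.15 and a median of 0.73. Genistein and wogonin, both plant flavonoids, were given to different lines and are not compared.

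**Figure D5:**
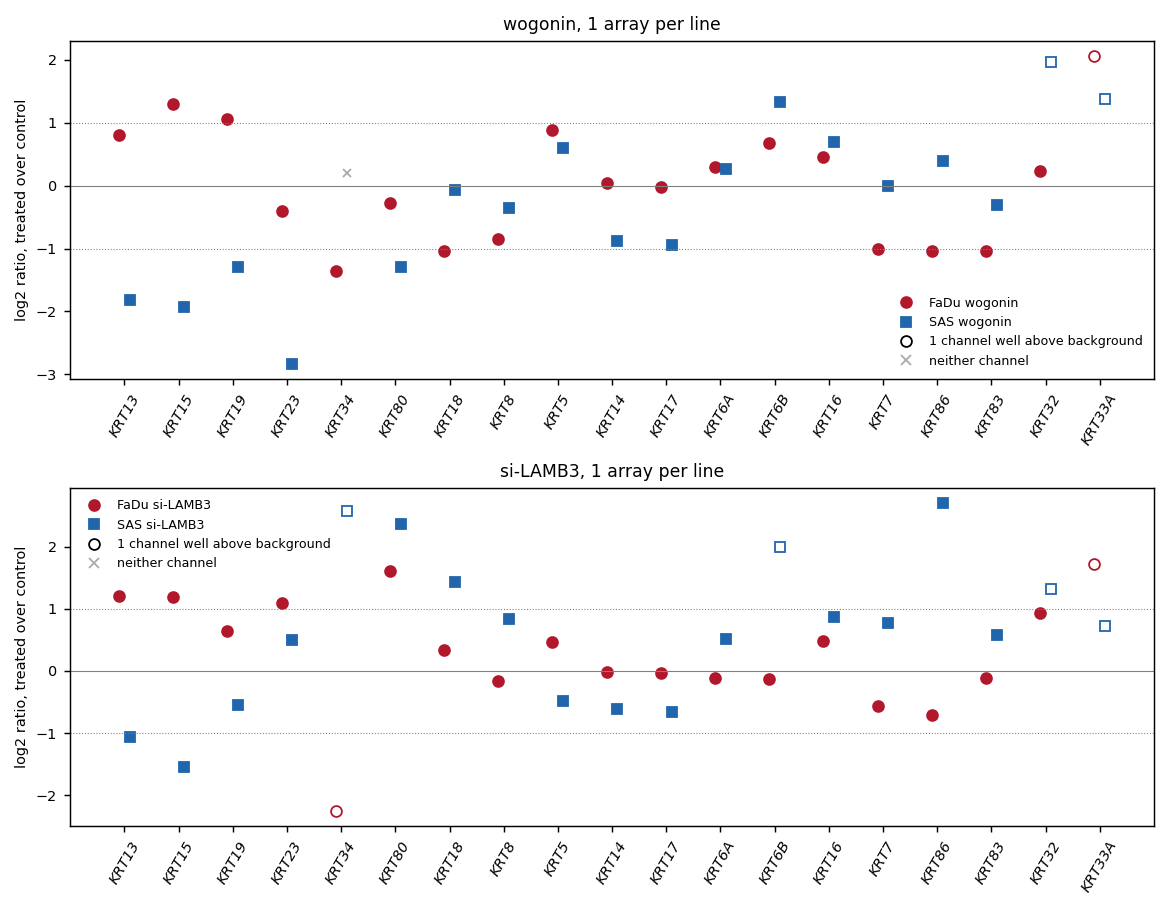
Log2 ratio of treated over control (y axis) for 19 keratins (x axis) in FaDu (red circles) and SAS (blue squares), with wogonin above and si-LAMB3 below, open where 1 channel was well above background and crosses where neither was, and dotted lines at 1 and -1. KRT15 lies at 1.30 and -1.93 with wogonin and at 1.19 and -1.54 with si-LAMB3, and KRT80 lies above 1 in both lines with si-LAMB3.

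With the remaining agents few keratins were called. miR-29a in SAS gave 0 calls of 32 keratins by size, with ratios from -0.97 to 0.92, while 8.97% of all genes were called. si-CAV2 gave 0 of 26 in A498 (2.1% of all genes) and 0 of 25 in 786O (1.95%), and in limma 0 of 29 keratins, with 0 at an unadjusted p under 0.05 and 0.0772% of all genes called. CXCL10 gave 0 of 26 at 12 h (1.87%) and 2 down of 28 at 24 h (1.92%), KRT13 at least 1.72-fold and KRT26 at least 1.59-fold. miR-143 gave 2 up of 30 in DU145 (2.64%), KRT74 and KRT79, and 2 up of 33 in PC3 (1.99%), KRT33A and KRT33B, each from a control not above background. si-GOLM1 gave 0 of 24 in DU145 (1.12%) and 1 up and 1 down of 37 in PC3 (2.68%), KRT24 at least 1.54-fold up and KRT14 at 7.48 against 8.52. In limma miR-143 and si-GOLM1 each called 0 of 37 keratins, with 4 and 8 at an unadjusted p under 0.05, and 0.00602% and 0.00605% of all genes called.

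Over all arrays KRT80 was called up most often by size, on 7 arrays, with 1 call down, and KRT74 was up on 6. KRT75, KRT34, KRT33A and KRT17 were up on 5 each. On the first design KRT74 was above background in 13 treated (Cy5) and 2 control (Cy3) channels and KRT33A in 13 and 4, over all agents, and their median ratios over the arrays tested were 0.58 and 0.73. There was no dye swap, so the dye and the treatment cannot be told apart in these tallies. KRT13 was called down most often, on 5 arrays, followed by KRT15 on 4. KRT3, KRT31, KRT73 and KRT85 could be tested on all 24 arrays and were called by size on 0. KRT8 was tested on 24 and called on 1. The 7 genes not above background on any array were KRT25, KRT38, KRT40, KRT72, KRT77, KRT82 and KRT84.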

How the data were processed

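RNA of a control (Cy3) and a treated culture (Cy5) was hybridised on each of 24 Agilent arrays. Per the file headers, the authors made the intensity values with Agilent Feature Extraction 10.7.3.1, which subtracted background and normalized the dyes, and the deposited log10 values are ratios of Cy5 over Cy3 from the same software. The array annotation was made for hg19. The authors' p-value columns were not used.

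Control spots were left out, and the brightest probe stood for each gene. Levels were log2 of the green processed intensity after Aquantile normalization within each design, and responses were the deposited log ratios on the log2 scale. Tests used limma 3.58.1 in R 4.3.3 with Benjamini-Hochberg adjustment over all genes tested and a limit of 0.05. For levels, probes well above background in no control channel of the design were left out, so a gene tested may be dim in both groups compared. For responses, probes well above background in neither channel of any array of the agent were left out. A fold given as at least a value sets the brighter group against the lowest signal well above background on the array or the dim reading, whichever was higher. Where the dim reading was higher, the fold is the plain ratio to that reading and not to a detection level. The PC3 controls of miR-23b, miR-24 and miR-27b share a control name and were averaged as 1 sample. Samples were grouped by line and agent from the labels. Keratins called in any comparison are named, with at most 4 genes of each other list by largest difference among those called. The members and lists were chosen with earlier results of these data known. Alternatives changed the background correction, scaling, dim-probe filter, probe choice, slide, spread and size limit, and left out each line or array. The number of arrays limits the precision. On simulated data, 57.7%, 81.2% and 95.2% of log2 changes of 1, 2 and 4 were recovered for squamous minus prostate over 17404 genes, and 52.1%, 84.6% and 96.9% for miR-145 over 16395 genes.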

Additional observations from a re-analysis of the deposited data

Results flagged for a closer look

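Keratins of these results moved past 1 log2 in opposite directions in FaDu and SAS. With si-LAMB3, KRT13 was 1.20 in FaDu and -1.06 in SAS, KRT15 was 1.19 and -1.54, and KRT34 was -2.25 and 2.58. With wogonin, KRT15 was 1.30 and -1.93 and KRT19 was 1.07 and -1.30. The treated value of KRT34 lay past both other controls of its line, in the direction of the change, in FaDu and in SAS. That of KRT15 did so with si-LAMB3 in SAS and with wogonin in FaDu. The other treated values listed here did not. Each value is 1 array, and the difference between the lines was not tested.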

How the results depend on the processing

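With probes well above background on every array, 8 in place of 19 were called for squamous minus prostate, 6 in place of 17 for squamous minus renal, 3 in place of 7 for renal minus prostate on the first design and 9 in place of 19 on the second. Within slide 1 these were 12 for squamous minus prostate, with KRT7 at -1.64, and 2 for renal minus prostate. Within slide 2 KRT19 was -0.44 for squamous minus prostate, and slide 2 holds no renal line, so the other comparisons could not be fitted there. Leaving out a line or a control gave 16 to 22, 15 to 19, 3 to 7 and 7 to 25 calls in the 4 comparisons, with 7 without PC3 and 25 without the control of 786O miR-27b. The 11 limma calls of responses became 3 after subtracting the other agents of the design, 3 after subtracting those on the slide, where KRT36 under genistein became 0.070, and 0 with only the arrays of the agent. Leaving out an array gave 4 to 16, with 4 without an si-CAV2 array and 16 without DU145 genistein. The 134 calls by size became 265 at a limit of 0.5, 66 with normexp and 73 with both channels well above background. Requiring a log2 difference past 1 was chosen after seeing the data. The cause of these shifts was not tested. No paired analysis was possible because the labels give no replicate numbers shared between lines.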
